A study of Homo sapiens with 4 samples.

Results

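Transcripts of 10 genes that define epithelial and mesenchymal cell states were followed in HCT116, a colorectal carcinoma cell line, with and without a DNA methyltransferase inhibitor. The set was CDH1, EPCAM, OVOL1 and GRHL2 on the epithelial side and CDH2, SNAI1, SNAI2, ZEB1, ZEB2 and TWIST1 on the mesenchymal side. Members were picked by exact gene symbol in the platform annotation, and a gene with several probe sets was represented by the one with the highest mean over the 4 arrays. All 10 were measured, out of 17958 genes with a probe set that named a single gene. One group of 2 arrays came from vehicle-treated cells, whose vehicle the labels do not name, and the other group of 2 arrays from cells given 5-aza-2'-deoxycytidine (decitabine) at 1 µM. The drug was added 24 hours after seeding and again 48 hours later, and RNA of both groups was collected 72 hours after the first dose. All arrays thus came from a single cell line under 1 dose and 1 time. The labels do not say whether arrays 1 and 2 of a group were separate cultures, so the p-values measure the spread between these arrays, which may be technical.

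Epithelial cells hold to each other through E-cadherin (CDH1), which binds E-cadherin on the neighbouring cell and is tied to actin by catenins. In an epithelial-mesenchymal transition, zinc finger proteins of the SNAI and ZEB families and the basic helix-loop-helix protein TWIST1 repress CDH1 and other junction genes, many through E-box DNA motifs, while N-cadherin (CDH2) and vimentin appear. GRHL2, OVOL1 and the miR-200 microRNAs act on the epithelial side, and ZEB factors and miR-200 repress each other. Decitabine is built into DNA in place of deoxycytidine, traps DNA methyltransferases and so lowers methylation at CG dinucleotides after replication. CDH1, CDH2 and EPCAM are adhesion molecules, and the other 7 genes encode transcription factors.

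RefSeq promoter windows (GRCh38.p14, 250 bases before to 50 after a transcript start) are shown for 3 of the members, all mesenchymal. They are shown because CG dinucleotides are the sites at which the drug acts. No window was at hand for CDH1, EPCAM, OVOL1, SNAI1 and TWIST1, and GRHL2 and SNAI2 were left out. Promoters of the epithelial members were therefore not examined. Methylation was not measured on these arrays. CG dinucleotides are in capitals in a window each of CDH2, the member with the largest rise, of ZEB1, and of ZEB2, the member with the smallest rise. They held 23, 35 and 14 CG, against a median of 14 over the 35116 windows of the table. At least as many CG were found in 35.8% of all windows for CDH2, in 14.1% for ZEB1 and in 50.3% for ZEB2. For CDH2 and ZEB1, the window with the most CG is printed, of 2 windows (4 to 23 CG) and 7 windows (7 to 35 CG).
CDH2, chr18:28177081-28177380, minus strand: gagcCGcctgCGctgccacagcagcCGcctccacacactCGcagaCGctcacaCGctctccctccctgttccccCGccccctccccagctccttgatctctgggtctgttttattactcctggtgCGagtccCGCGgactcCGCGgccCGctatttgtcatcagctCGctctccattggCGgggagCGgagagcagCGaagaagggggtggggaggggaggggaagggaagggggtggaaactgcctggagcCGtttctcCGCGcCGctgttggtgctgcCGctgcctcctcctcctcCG
ZEB1, chr10:31319518-31319817, plus strand: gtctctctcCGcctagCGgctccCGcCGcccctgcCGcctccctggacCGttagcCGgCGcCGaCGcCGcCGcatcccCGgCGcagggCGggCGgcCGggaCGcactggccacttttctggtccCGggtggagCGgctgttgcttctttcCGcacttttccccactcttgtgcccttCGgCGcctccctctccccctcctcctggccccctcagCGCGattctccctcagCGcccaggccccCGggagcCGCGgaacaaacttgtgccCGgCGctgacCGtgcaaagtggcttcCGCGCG
ZEB2, chr2:144520070-144520369, minus strand: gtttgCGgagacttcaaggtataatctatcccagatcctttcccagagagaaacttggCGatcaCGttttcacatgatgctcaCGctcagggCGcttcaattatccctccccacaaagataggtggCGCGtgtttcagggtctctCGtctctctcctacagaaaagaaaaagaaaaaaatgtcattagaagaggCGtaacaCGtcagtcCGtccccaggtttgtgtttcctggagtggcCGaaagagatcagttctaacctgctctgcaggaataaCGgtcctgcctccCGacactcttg

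SNAI and ZEB proteins bind E-boxes of the letters CACCTG or, on the other strand, CAGGTG. These letters occurred in 20.6% of all windows. Neither CDH2 window nor the ZEB2 window held them, and of the 7 windows of ZEB1, 5 held none, 1 held 1 and 1 held 3, at bases 9, 166 and 284. The window with 3 was picked as the richest of the 7, with the counts known. A match is a description of letters and not a shown binding site. The window with 3 follows, with the E-boxes in capitals.
ZEB1, chr10:31318966-31319265, plus strand: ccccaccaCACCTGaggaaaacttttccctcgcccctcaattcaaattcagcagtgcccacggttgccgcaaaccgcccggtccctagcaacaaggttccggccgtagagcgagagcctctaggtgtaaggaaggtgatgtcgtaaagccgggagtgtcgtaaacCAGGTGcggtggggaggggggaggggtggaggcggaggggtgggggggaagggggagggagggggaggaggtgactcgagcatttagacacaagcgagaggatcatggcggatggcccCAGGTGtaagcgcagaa

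The deposited values were log2 levels after RMA, which corrects background, equalizes the distribution of the arrays and summarizes the probes of a probe set. They can be compared between arrays for a gene, but not between genes. Array medians over 33297 probe sets were 5.73 and 5.72 on the vehicle arrays and 5.84 and 5.84 on the treated arrays, so they differed by group. Pearson's correlation over probe sets was 0.995 between vehicle arrays, 0.992 between treated arrays and 0.966 to 0.971 across groups (probe sets are not independent replicates). The table held no detection calls, so dim levels could not be set against background. A gene is said to have risen or fallen where limma's moderated test, fitted over all 17958 genes, gave a Benjamini-Hochberg adjusted p under 0.05. By this rule 12.4% of all genes rose and 15.6% fell, and the median gene changed by -0.07. The smallest p that exact permutation of 2 against 2 arrays allows is 0.333, and the calls therefore depend on the variance that limma pools over genes. In bulk RNA, fewer cells with a transcript and less of it per cell cannot be told apart.

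All 6 mesenchymal genes rose in treated cells, against 12.4% of all genes, and 2 of the 4 epithelial genes fell, against 15.6% of all genes. The rises ran from 1.39-fold (ZEB2) to 4.67-fold (CDH2), and the falls were of GRHL2 (3.66-fold lower) and EPCAM (1.64-fold lower). CDH1 itself did not pass the test. No epithelial gene rose and no mesenchymal gene fell in limma's test, and at an unadjusted p under 0.05 these counts were 0 and 0 as well. The median log2 fold change was 0.93 for the mesenchymal and -0.39 for the epithelial genes. The highest epithelial value, 0.22 for OVOL1, lay under the lowest mesenchymal value, 0.47 for ZEB2. With the median of a gene's probe sets in place of the brightest, ZEB2 was at 0.12, under OVOL1. For all 10 genes the vehicle and treated arrays did not overlap, which held for 65.8% of all genes.

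**Figure D1:**
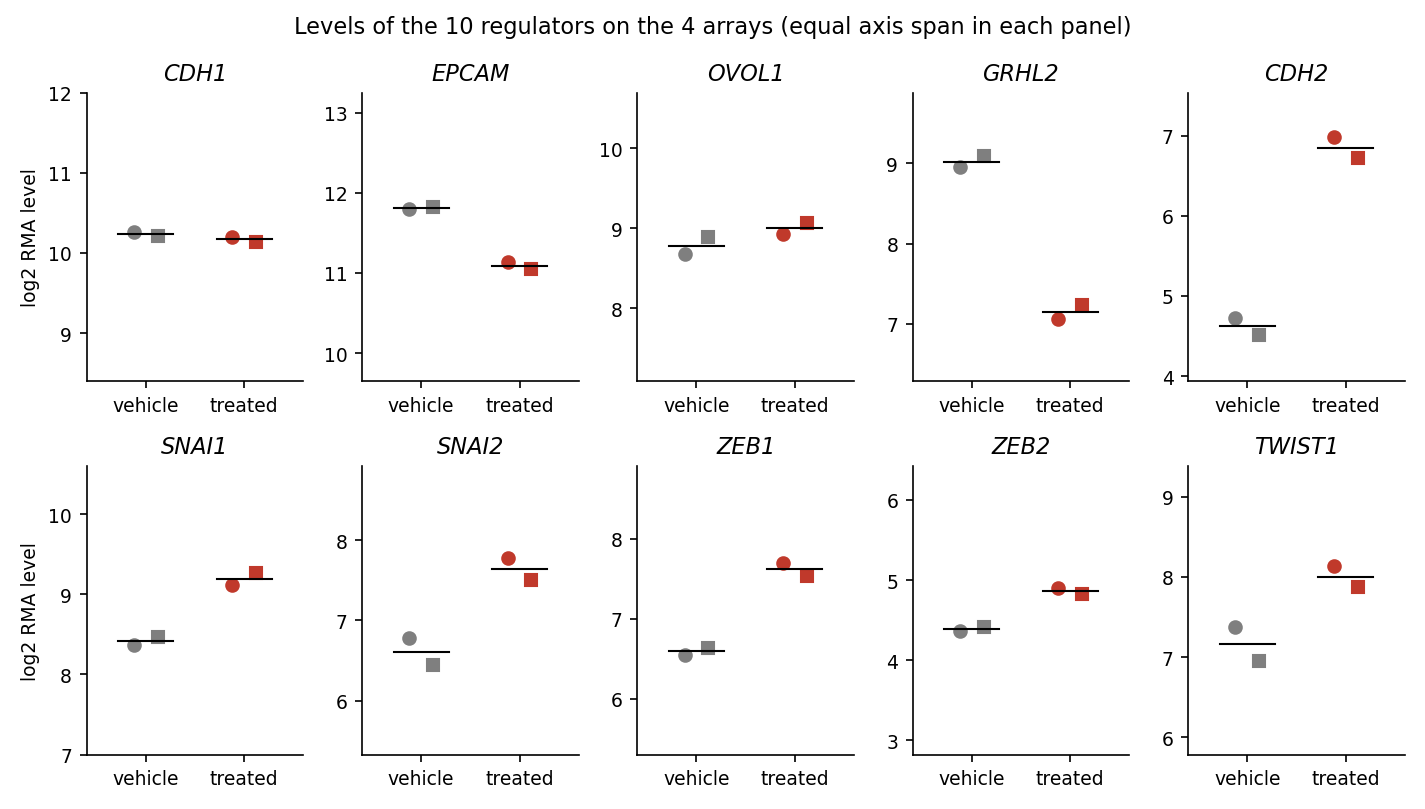
Log2 RMA level of each of the 10 genes on the 4 arrays (circle, array 1 of a group; square, array 2; black line, mean of 2 arrays), with the same axis span of 3.6 in every panel. CDH2 moved by 2.22 and GRHL2 by -1.87, whereas the CDH1 arrays lay within 10.14 to 10.26.

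CDH2 encodes N-cadherin, the adhesion molecule of neural and mesenchymal cells. Its log2 level was 4.73 and 4.52 on the vehicle arrays and 6.98 and 6.72 on the treated arrays. Both treated arrays were above both vehicle arrays, and the nearest arrays of the groups were 1.99 apart. The log2 fold change was 2.22 (SE 0.14, 95% interval 1.88 to 2.57, adjusted p = 9.49e-05), or 4.67-fold on this scale. Of all 17958 genes, 286 had a higher fold change. The vehicle level of CDH2 was not shown to be above background, so the fold and the rank hold for RMA levels only. The same holds for the folds of other genes with dim vehicle levels, among them ZEB2, LEF1, BMPR1B, NID1, THY1, COL6A3 and ENG.

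SNAI1, the zinc finger repressor Snail, stood at 8.37 and 8.46 in vehicle and at 9.11 and 9.26 in treated cells. It rose 1.71-fold (log2 fold change 0.77, SE 0.12, adjusted p = 0.00458). Its relative SNAI2, the repressor Slug of neural crest cells, went from 6.78 and 6.44 to 7.77 and 7.50, a 2.04-fold rise (log2 fold change 1.03, SE 0.16, adjusted p = 0.00451). Array 1 was the higher array of SNAI2 in both groups, and the lower of the treated arrays still lay above both vehicle arrays. SNAI3, the third gene of the family, did not pass the test: it read 7.71 and 7.65 in vehicle and 7.19 and 7.59 in treated cells (log2 fold change -0.29, 95% interval -0.66 to 0.08, adjusted p = 0.217). The difference between the family members was not tested.

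ZEB1, a zinc finger and homeodomain repressor of CDH1, read 6.55 and 6.64 in vehicle and 7.70 and 7.53 in treated cells. It rose 2.03-fold (log2 fold change 1.02, SE 0.12, adjusted p = 0.00153), and the groups were far apart compared with their SD of 0.06 and 0.12. ZEB2, which also binds SMAD proteins, went from 4.36 and 4.41 to 4.90 and 4.82, the smallest rise of the 6 (log2 fold change 0.47, SE 0.11, adjusted p = 0.0230). Of the 8 calls, that of ZEB2 was lost under the most alternatives, 4 of 10. It was lost without vehicle replicate 1 (adjusted p = 0.187), without vehicle replicate 2 (adjusted p = 0.142), with p-values adjusted over all 33297 probe sets (adjusted p = 0.0586) and with the median of its probe sets (adjusted p = 0.474). A second probe set of ZEB2 was dimmer and went the other way, from 2.00 and 2.09 to 1.79 and 1.85 (log2 fold change -0.23, adjusted p = 0.259 over all probe sets).

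TWIST1, a helix-loop-helix factor of mesoderm and neural crest, stood at 7.38 and 6.95 in vehicle and at 8.13 and 7.88 in treated cells. It rose 1.79-fold (log2 fold change 0.84, SE 0.18, adjusted p = 0.0129). Its vehicle arrays differed by more than those of the other 9 genes, with an SD of 0.30. Without vehicle replicate 2 the log2 fold change was 0.63 and the call was lost (adjusted p = 0.0803), as it was with adjustment over all probe sets (adjusted p = 0.0565). TWIST2, its closest paralog, overlapped between the groups (5.45 and 5.59 in vehicle, 5.76 and 5.53 in treated cells; log2 fold change 0.13, 95% interval -0.19 to 0.45).

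On the epithelial side, GRHL2 changed the most. This grainyhead factor keeps up transcription of junction genes such as CDH1 and claudins. Its level was 8.95 and 9.09 in vehicle and 7.07 and 7.23 in treated cells. The groups were far apart, with an SD of 0.10 and 0.12. GRHL2 fell 3.66-fold (log2 fold change -1.87, SE 0.13, 95% interval -2.17 to -1.57, adjusted p = 0.000121), and 26 of the 17958 genes had a lower fold change. Its relatives went opposite ways. GRHL1, which takes part in desmosome formation in epidermis, fell 2.08-fold (from 7.55 and 7.58 to 6.63 and 6.39; adjusted p = 0.00162). GRHL3, a factor of the epidermal barrier, rose 1.58-fold (from 5.74 and 5.64 to 6.37 and 6.33; adjusted p = 0.00661).

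EPCAM, a surface adhesion protein of simple epithelia and carcinomas, read 11.79 and 11.82 in vehicle and 11.14 and 11.04 in treated cells. It fell 1.64-fold (log2 fold change -0.72, SE 0.12, adjusted p = 0.00495). Its second probe set moved alike, from 11.28 and 11.17 to 10.48 and 10.25 (log2 fold change -0.86, SE 0.14, adjusted p = 0.0236 over all probe sets). Whether this second probe set reads EPCAM itself or a near-identical copy could not be settled without probe sequences.

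CDH1 stood at 10.26 and 10.21 in vehicle and at 10.20 and 10.14 in treated cells. The log2 fold change was -0.06 (SE 0.11, adjusted p = 0.732), with a 95% interval of -0.33 to 0.21, so a fall as large as that of EPCAM lay outside the interval. The groups did not overlap, but the gap between the nearest arrays was 0.01. Relative to housekeeping genes the sign of CDH1 turned (log2 fold change 0.14, adjusted p = 0.505). CDH3, the P-cadherin of basal epithelia, stayed between 11.42 and 11.56 on all 4 arrays (log2 fold change -0.07, 95% interval -0.35 to 0.21).

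OVOL1, a zinc finger factor that opposes ZEB1 in epithelia, read 8.68 and 8.89 in vehicle and 8.93 and 9.07 in treated cells, and did not pass the test (log2 fold change 0.22, 95% interval -0.09 to 0.53, adjusted p = 0.269). The nearest arrays of the groups were closer to each other than the vehicle arrays were among themselves. OVOL2 overlapped between the groups, with a log2 fold change of 0.07 (95% interval -0.23 to 0.37), and OVOL3 had no probe set of its own.

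**Figure D2:**
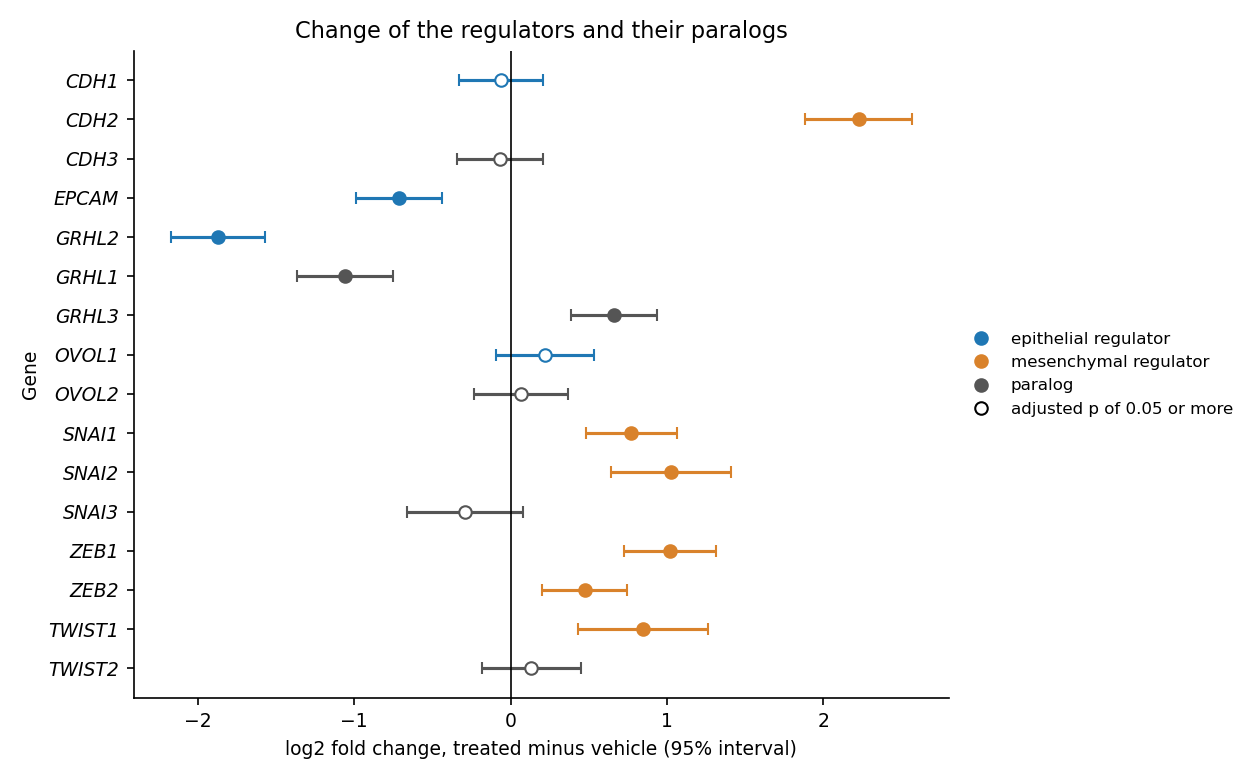
Log2 fold change (treated minus vehicle, 2 arrays each) with limma's 95% interval for the 10 genes and 6 paralogs, by family. The 6 mesenchymal genes lie right of 0, GRHL2, GRHL1 and EPCAM left of it, and open symbols (CDH1, CDH3, OVOL1, OVOL2, SNAI3, TWIST2) had an adjusted p of 0.05 or more.

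The change of CDH2 was set beside the rest of its family. Of 23 other cadherins and catenins, limma called 0 higher and 0 lower, against 12.4% and 15.6% of all genes. At an unadjusted p under 0.05 the counts were 1 and 1. Their log2 fold changes ran from -0.33 to 0.53. The median was -0.05, against -0.07 for all genes. Only 7 of the 23 remained without the dimmest 33.3% of genes, and the dim ones could not be set against background. The lack of calls therefore does not show that the family was unchanged. Of 26 genes listed, CDH4, CDH13 and CTNND1 had no probe set of their own. CDH15, the M-cadherin of muscle, came nearest to a call (log2 fold change 0.53, adjusted p = 0.0581). It was called in 4 of 11 alternatives, among them the fit without treated replicate 1 (adjusted p = 0.00725) and the one with the replicate number as a block (adjusted p = 0.0255). CDH9, of neuronal tissue, had a log2 fold change of -0.33 (adjusted p = 0.122). CTNNB1 (beta-catenin), which links cadherins to alpha-catenin, had a log2 fold change of 0.12 (adjusted p = 0.503), and CTNNA1 (alpha-catenin) of 0.11 (adjusted p = 0.535). CDH11, a cadherin of mesenchymal cells, had a log2 fold change of -0.16 (adjusted p = 0.525), and its difference from CDH2 was not tested. CDH11, CTNNB1 and CTNNA1 were named after their values were seen.

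Around the members, a list of other epithelial junction and program genes had more falls than rises. Of 49 tested, 15 fell and 6 rose (30.6% and 12.2%, against 15.6% and 12.4% of all genes), with a median log2 fold change of -0.24. After GRHL1, the smallest p-values were those of RAB25, a GTPase of apical recycling (10.93 and 10.86 in vehicle, 9.89 and 10.01 in treated cells, 1.92-fold lower), ELF3, an epithelial ETS factor (8.73 and 8.90, then 7.76 and 7.89, 1.98-fold lower), and CLDN4, a tight junction claudin (10.73 and 10.77, then 9.76 and 9.90, 1.89-fold lower). The adjusted p lay between 0.00182 and 0.00205 for these 3 genes. The splicing factor ESRP1, which sets epithelial splice forms, was 2.04-fold lower, and CLDN3 and CLDN7 also fell (log2 fold changes -0.75 and -0.46). The 6 rises were of LAMB3, a laminin chain of the basement membrane (0.78), GRHL3 (0.66), KLF5, a factor of proliferating crypt cells (0.57), DSP, the desmosome protein desmoplakin (0.50), the keratin KRT18 (0.44) and TJP1, the tight junction scaffold ZO-1 (0.42). ESRP1, CLDN3, CLDN7 and these rises other than GRHL3 were named after their values were seen. Centred on housekeeping genes, 10 fell and 9 rose. Without vehicle replicate 1, 9 fell and 1 rose, and without vehicle replicate 2, 10 fell and 1 rose.

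Mesenchymal and matrix genes went up far more often than down. Of 50 tested, 24 rose and 1 fell (48% and 2%, against 12.4% and 15.6% of all genes). The median log2 fold change was 0.39. At least 2-fold rises numbered 14 of 50, against 5.05% of all genes. This list, like the members and the other lists, was chosen with earlier results of these data known. Its share of rises may partly repeat that choice. SPARC, a matricellular protein, went from 6.29 and 6.32 to 10.86 and 10.78, CCN2, a secreted matrix-associated factor, from 6.50 and 6.36 to 10.56 and 10.57 (17.5-fold), and NID1, the basement membrane protein nidogen, from 3.66 and 3.58 to 6.42 and 6.23 (6.53-fold, from a vehicle level not shown to be above background). VIM, the intermediate filament of mesenchymal cells, read 5.41 and 6.01 in vehicle and 10.94 and 11.04 in treated cells, so its log2 fold change of 5.29 (SE 0.20) exceeded that of CDH2. The single fall was of CD44, a hyaluronan receptor that is also abundant on carcinoma cells (log2 fold change -0.50, adjusted p = 0.0206), picked out here with its value known. It was not called without vehicle replicate 1, without vehicle replicate 2 or with housekeeping centring, while 3 genes fell without treated replicate 2. Rises numbered 16 without vehicle replicate 1.

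**Figure D3:**
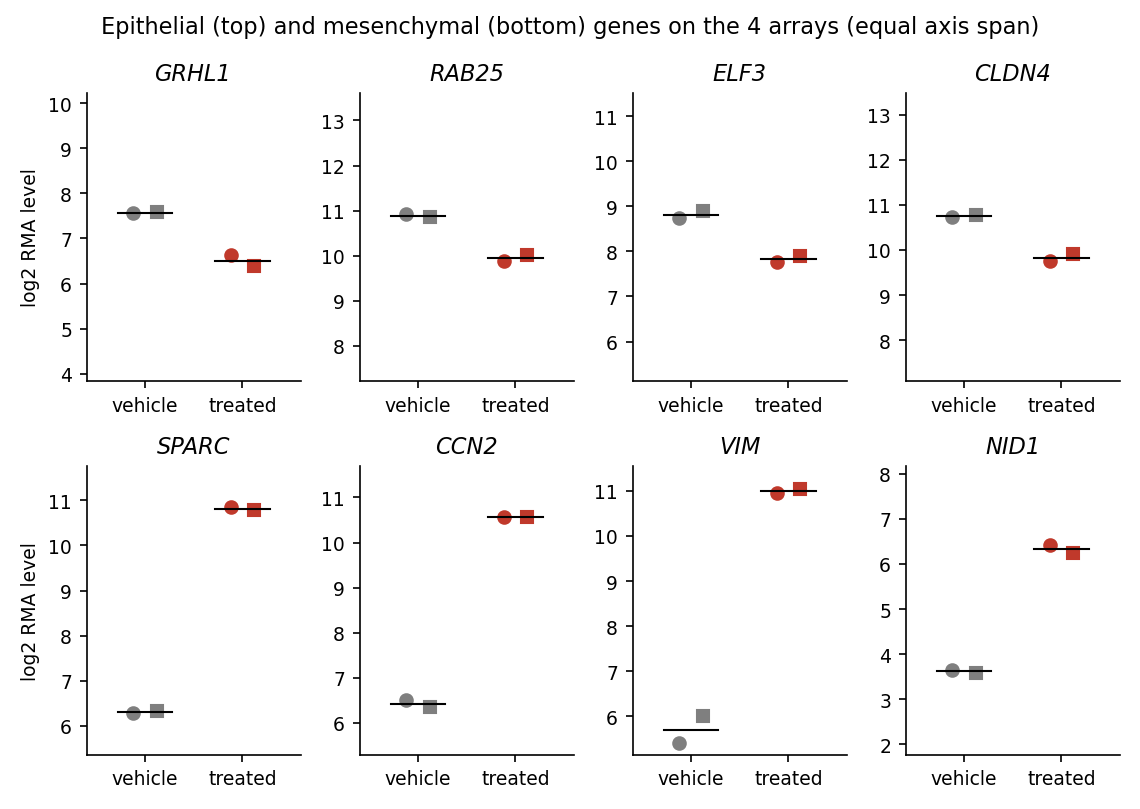
Log2 RMA level on the 4 arrays of the 4 genes with the smallest p-values in the epithelial list (top) and in the mesenchymal and matrix list (bottom), with marks as for the 10 genes and an axis span of 6.4. The falls of GRHL1, RAB25, ELF3 and CLDN4 were each near 1 on the log2 scale, and the rises of SPARC, CCN2, VIM and NID1 ran from 2.71 to 5.29.

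Other transcription factors and partners of this transition were counted next. Of 46 tested, 15 rose and 3 fell (32.6% and 6.52%, against 12.4% and 15.6% of all genes). The median log2 fold change was 0.23. The leading rises were of LEF1, the WNT pathway factor (4.40 and 4.65, then 6.96 and 7.25), MSX1, a homeobox factor of craniofacial mesenchyme (9.84 and 9.95, then 11.52 and 11.72, 3.30-fold), AJUBA, a LIM protein that binds SNAI proteins as a corepressor (2.34-fold), and ETS1 (2.48-fold). The 3 falls, picked out with their values known, were of CTBP1, a corepressor bound by ZEB1 (log2 fold change -0.54, adjusted p = 0.0147), SOX4 (-0.45) and ID1, an inhibitor of helix-loop-helix factors (-0.41). Their relatives in the list did not fall. ID2 rose (0.42, adjusted p = 0.0458), and ID3 (0.09) and ID4 (0.18) were not called. CTBP2 was not called (0.30), SOX9 rose (0.64) and SOX10 was not called (0.51). These relatives were also named after their values were seen. No fall was called without vehicle replicate 1, without vehicle replicate 2 or with housekeeping centring, which gave 22 rises. Without vehicle replicate 1 there were 9 rises.

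TGF-beta, which signals through SMAD proteins, is a well-known inducer of SNAI and ZEB genes. Of 40 tested ligands, receptors, SMADs and inhibitors of the TGF-beta and BMP pathways, 13 rose and 2 fell. These were 32.5% and 5%, against 12.4% and 15.6% of all genes, and the median log2 fold change was 0.15. ENG, an accessory receptor also used as an endothelial marker, went from 5.06 and 5.32 to 7.56 and 7.88. LTBP2, of a family of latent TGF-beta binding proteins, rose 2.68-fold, and BAMBI, a decoy receptor, 2.59-fold. The receptor gene BMPR1B rose 2.38-fold, from a vehicle level of 3.83 and 4.04. SKIL and SMAD7, which restrain SMAD signaling, rose by 1.01 and 0.91 on the log2 scale, whereas SMAD6, SKI, SMURF1, SMURF2 and TGIF1 were not called (log2 fold changes -0.31 to 0.25). The ligand TGFB1 had a log2 fold change of 0.60 with an adjusted p of 0.0474. The falls were of SMAD9 (-0.53) and LTBP1 (-0.54). SKIL, the SMAD genes, SKI, SMURF1, SMURF2, TGIF1, TGFB1 and LTBP1 were named after their values were seen. Without vehicle replicate 1 there were 6 rises and 0 falls, without vehicle replicate 2 there were 8 and 0, and with housekeeping centring 17 and 0.

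**Figure D4:**
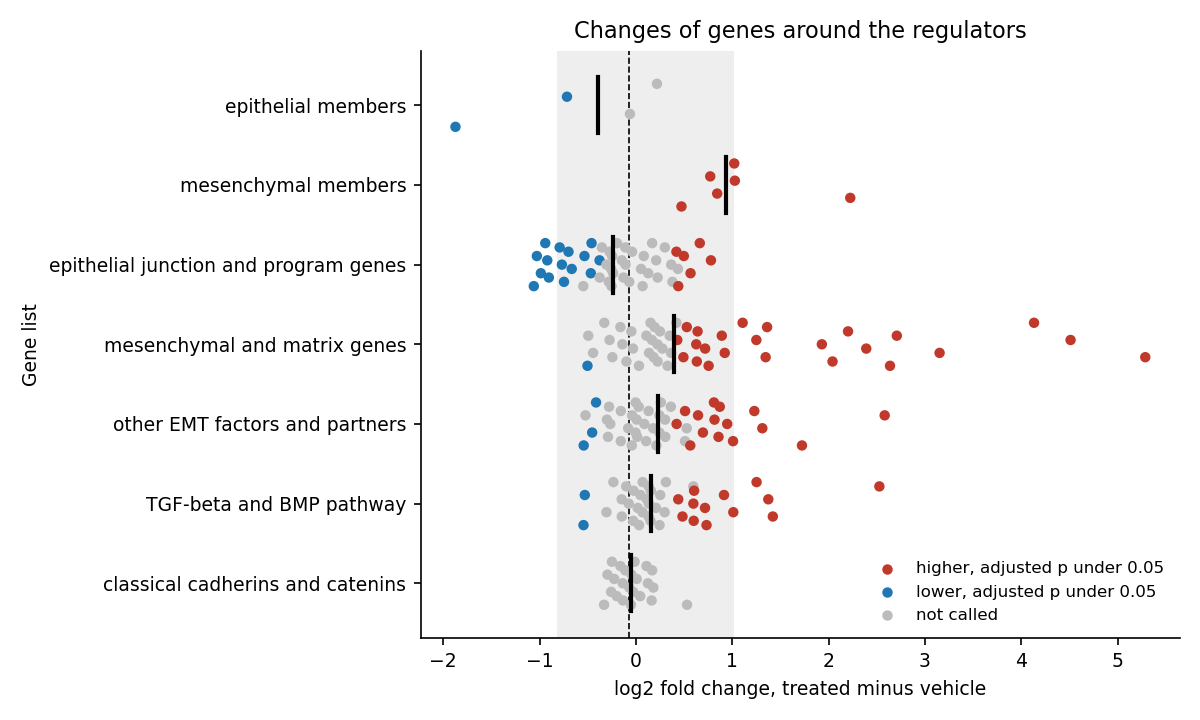
Log2 fold change (treated minus vehicle) of every tested gene of each list (points; red, rose; blue, fell; grey, not called), with the list's median (black bar), the median of all genes (dashed line, -0.07) and the range that holds the central 90% of all genes (shaded, -0.81 to 1.01). The mesenchymal lists reach far right of the shaded range, and none of the 23 cadherins and catenins leaves it.

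The miR-200 microRNAs form 2 groups by their seed, bases 2 to 8, which pairs with target sites in ZEB1 and ZEB2 transcripts. Their mature RefSeq sequences are shown, with the seed in capitals, because ZEB1 rose.
hsa-miR-200b-3p: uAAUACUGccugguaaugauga
hsa-miR-200c-3p: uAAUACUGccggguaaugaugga
hsa-miR-429: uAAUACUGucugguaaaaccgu
hsa-miR-200a-3p: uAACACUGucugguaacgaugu
hsa-miR-141-3p: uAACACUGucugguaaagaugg

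The arrays carry probe sets under the names of these genes. These read RNA of the locus in a total RNA preparation and not specifically the mature microRNA. Of 8 genes of a list of miR-200 family members and related microRNAs, 0 rose and 0 fell in limma's test. Over all genes these shares were 12.4% and 15.6%. At an unadjusted p under 0.05 the counts of the list were 0 and 0 as well. Their mean vehicle levels were dim, from 2.91 (MIR34A) to 5.12 (MIR200C), and could not be set against background. The lack of calls therefore does not show that these loci were unchanged. MIR200C read 5.22 and 5.03 in vehicle and 4.53 and 4.98 in treated cells (log2 fold change -0.37, 95% interval -0.78 to 0.04, adjusted p = 0.163). MIR200B read 4.88 and 4.66, then 4.54 and 4.36 (log2 fold change -0.32, adjusted p = 0.128). The groups did not overlap for these 2 of the 8 genes, against 65.8% of all genes. MIR429, which shares their seed, had a log2 fold change of -0.05, MIR141 of -0.09 and MIR200A of -0.07 (adjusted p between 0.623 and 0.821).

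The label of the cells was set against marker genes. The keratins KRT8, KRT18 and KRT19 of simple epithelia were at mean levels of 12.27 to 13.26 in both groups. Of 12 markers of the carcinoma line, 4 rose and 0 fell (0 at an unadjusted p under 0.05). The rises were of TFF3, a goblet cell peptide (log2 fold change 0.88), KRT18 (0.44), CDX2, an intestinal homeobox factor that went from a mean of 7.92 to 8.62, and ASCL2, a stem cell factor (0.41). The markers VIL1, CDH17, CEACAM5 and GPA33, picked out like KRT8 and KRT19 with their values known, had mean levels of 3.77 to 4.60 and were not called, and the table does not tell whether such levels lie above background. Genes used as markers of other cells rose beside the mesenchymal genes: 5 of 12 for fibroblasts (all 12 also in the mesenchymal list), 4 of 10 for endothelium and 5 of 11 for leukocytes, with 0, 1 and 0 falls, against 12.4% rises and 15.6% falls over all genes. The mean level of the fibroblast markers was 4.61 and 4.62 in vehicle and 5.17 and 5.25 in treated cells. That of the endothelial markers was 4.62 and 4.78, then 5.39 and 5.32, and that of the leukocyte markers 4.61 and 4.78, then 5.32 and 5.33. Among the rises by smallest p-value were THY1 (log2 fold change 3.15) and COL6A3 (2.64) of fibroblasts, ENG (2.53) and PECAM1 (1.79) of endothelium, and CD3D (1.79) of leukocytes. The mean vehicle levels of THY1 (4.44), COL6A3 (4.56) and ENG (5.19) were not shown to be above background. Other markers of the same lists were not called, for example DCN (0.25) and LUM (0.14) of fibroblasts, CDH5 (0.18) of endothelium and PTPRC (0.10) of leukocytes, which were named after their values were seen. RMA lists no gene at 0. The part of these marker genes in the results was not tested.

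**Figure D5:**
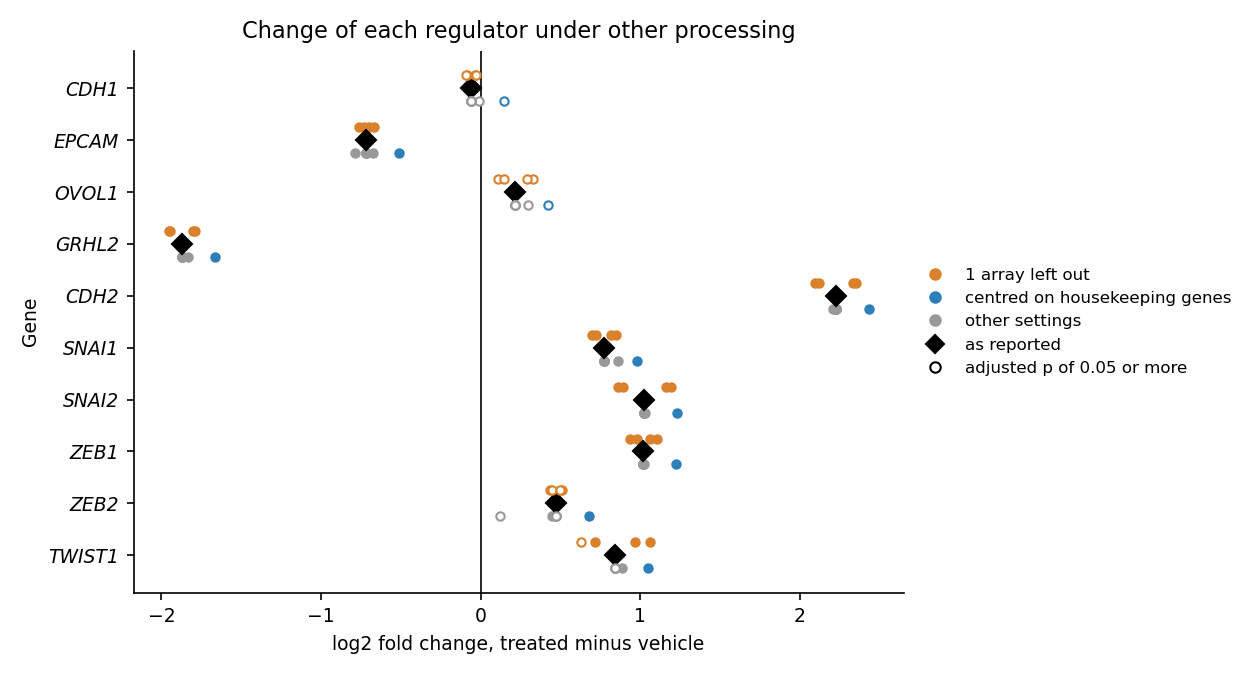
Log2 fold change of each of the 10 genes as reported (black diamonds) and under 11 alternatives (10 for ZEB2), as leaving out 1 array (orange), centring on housekeeping genes (blue) and others (grey), with open circles where the adjusted p was 0.05 or more. GRHL2 stayed between -1.96 and -1.67 and CDH2 between 2.10 and 2.43, and CDH1 reached 0.14 after centring.

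Of the 8 calls, those of EPCAM, GRHL2, CDH2, SNAI1, SNAI2 and ZEB1 were kept under all 11 alternatives. The adjusted p over these alternatives reached 0.0458 for EPCAM, 0.0440 for SNAI1, 0.0284 for SNAI2 and 0.0120 for ZEB1, and 0.00248 for GRHL2 and 0.00247 for CDH2. The direction was kept under every alternative for 9 of the 10 genes, CDH1 being the exception.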

How the data were processed

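The authors computed the deposited log2 values by RMA in Affymetrix Expression Console, per the submitters' processing notes. Software versions and the genome build were not given in the sources used here. The values were used as deposited. A platform annotation named the probe sets: 19181 of 33297 had 1 gene symbol, 2055 several, and 12061 were not listed. Each of 17958 genes took its probe set with the highest mean; 895 genes had more than 1. Treated and vehicle arrays were compared over all genes with limma 3.58.1 in R 4.3.3 (lmFit, eBayes, no covariate, two-sided, Benjamini-Hochberg), tested on simulated data. Precision is limited by 2 arrays per group. The members and gene lists were chosen with earlier results of these data known. Genes named were the members, their paralogs, VIM and up to 4 genes per list by smallest p-value, others as stated. List counts are descriptions without a set test. Alternatives were each array left out, the replicate block, repeated quantile normalization, housekeeping centring, no dim genes, a mean-variance trend, the median of probe sets and adjustment over all probe sets.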

Additional observations from a re-analysis of the deposited data

How the results depend on the processing

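With 1 array left out, rises over all genes numbered 1267 to 2530 and falls 1196 to 3401, against 2229 and 2794; the lowest counts came without vehicle replicate 1. Mesenchymal members called were 4 to 6. The ranges were 1 to 7 rises and 9 to 18 falls for the epithelial list (main 6 and 15), 16 to 24 rises and 0 to 3 falls for the mesenchymal list (24 and 1), 9 to 17 and 0 to 4 for other factors (15 and 3), 6 to 13 and 0 to 2 for the TGF-beta list (13 and 2), and 0 to 1 rises for the cadherins. Centring on 22 housekeeping genes moved the median gene from -0.07 to 0.13, gave 3520 rises and 1448 falls (70.9% rises among calls, against 44.4%), 0 falls in the mesenchymal, other factor and TGF-beta lists and 1 cadherin rise, and turned CDH1 to 0.14. With the replicate number as a block, the mesenchymal list had 4 falls and the cadherins 1 rise, and all 8 member calls were kept. Labels do not pair the arrays; within-group differences of same-numbered arrays correlated at 0.27 over genes. Without the dimmest 33.3% of genes, which removed ZEB2, the mesenchymal list had 2 falls and the cadherins 1 rise. Over all probe sets, there were 3 epithelial rises, 0 mesenchymal falls and 1 fall each among other factors and the TGF-beta list, and 4 mesenchymal members were called. The causes were not tested. CDH15 was the cadherin in each of these fits.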
